A study of Caenorhabditis elegans with 47 samples.

Results

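GFP::degron worms collected 16 h after a temperature upshift were set against GFP::degron worms collected 12 h after it. The members are the arrays titled GFP::degron at T16, with 4 biological repeats, and GFP::degron at T12, with 5, which makes 9 of the 47 arrays of the series. The study followed Caenorhabditis elegans that expressed GFP::degron, Abeta or GFP. Every strain grew at 16 °C up to the beginning of the third larval stage, and a move to 25 °C at that point set T0. Collections followed at 4 h intervals up to T20. The groups compared here were GFP::degron T16 (4 arrays) and T12 (5), beside Abeta T16 (4) and T12 (4) and GFP T16 (4) and T12 (5). Levels at GFP::degron T8 (4 arrays) and T20 (1 array) are given as description, and GFP T8 and T16 arrays set a stage score. The design therefore asks which genes changed in GFP::degron worms during the last part of larval growth at 25 °C, and how far the T16 repeats spread. A degron is a stretch of protein that marks what it is fused to for degradation. The labels give no promoter for the transgene and no number of worms or plates per sample, and no probe set for the transgene was used here. The worms ate OP50 bacteria on NGM plates, and from whole-worm RNA, 5 µg for each sample, labelled material was hybridised to one-colour Affymetrix arrays. Titles call the samples biological repeats, and the p-values measure the spread between these samples.

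Larvae of C. elegans build a new cuticle before each molt, and genes of the epidermis that make cuticle and remodel it are switched on and off once per larval stage. Furrow collagens come early in each cycle and other collagens later. Hermaphrodites make sperm during the fourth larval stage and then switch to oocytes, so sperm genes rise before yolk, eggshell and maternal genes. Adult cuticle collagens and the vitellogenins, the yolk proteins made by the intestine, mark the passage into adulthood.

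Median intensity of the 9 arrays lay between 81.9 and 108.5, and no array was much dimmer than the others. Levels are given as log2(intensity + 1) with each array centred on its median, so 1 log2 unit is a 2-fold change. The gene gtnt-8, which marked this strain in earlier results of these data, had a level of 7.46, 7.40, 7.68 and 7.62 in T16 repeats 1 to 4 and of 8.31, 8.35, 8.55, 8.03 and 7.97 in T12 repeats 1 to 5. In GFP worms its mean level was -0.06 at T16 and 0.99 at T12. On T16 repeat 2, 4 probe sets lay above 65535, the largest value that a 16-bit scanner writes, as 4 did on the T20 array. The size of such values is therefore not taken at face value below.

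The T16 repeats did not stand at the same point of development. A stage score was computed over the 500 genes with the largest moderated t between T16 and T8 in GFP worms (1 dim T8 array left out), with 0 at the GFP T8 mean and 1 at the GFP T16 mean. No GFP::degron array set this scale. T16 repeats 1 to 4 scored -0.12, 0.81, 0.18 and 0.09, and the T12 repeats scored between -0.21 and -0.14. Repeat 1 thus lay just above the T12 arrays, repeats 3 and 4 lay somewhat further on, and repeat 2 lay above the T20 array of the strain, which scored 0.74. After quantile normalization repeat 1 scored -0.05, within the T12 range of -0.10 to -0.04. The T8 arrays of the strain scored between -0.22 and -0.11, so the score does not separate T8 from T12. In Abeta worms the 4 T16 arrays scored between 0.49 and 0.98. The genes of the score include 21 sperm genes other than major sperm proteins, 5 major sperm protein genes and 13 numbered collagens, so levels of those genes repeat what the score shows.

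**Figure D1:**
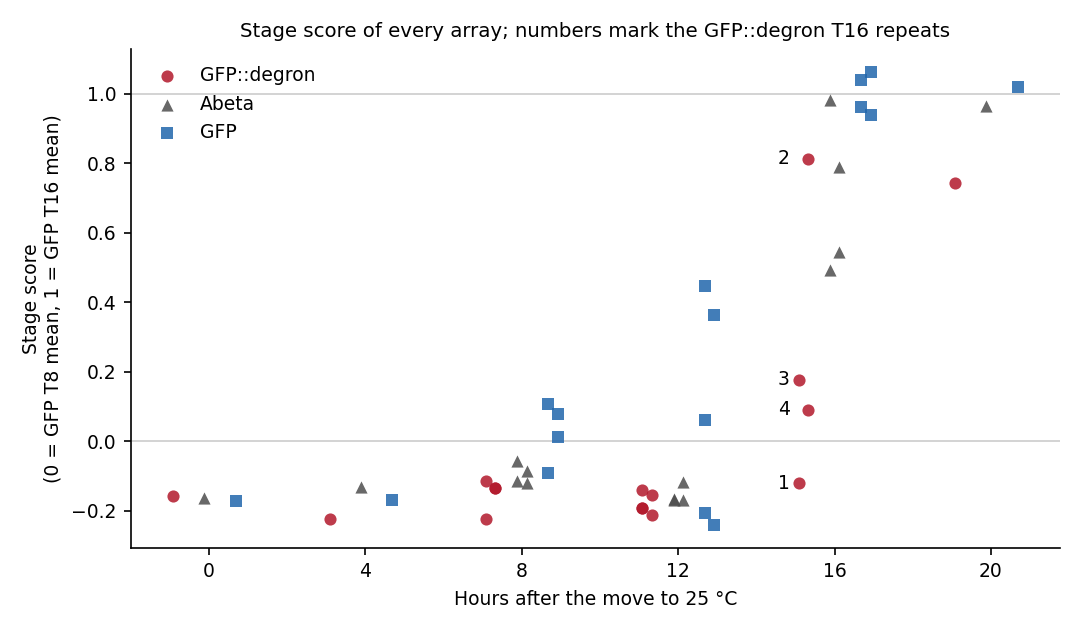
Stage score (vertical axis, 0 at the GFP T8 mean and 1 at the GFP T16 mean) of all 47 arrays against hours after the move to 25 °C (horizontal axis), with the 3 strains set side by side at each time. The 4 GFP::degron arrays of T16, marked by repeat number, run from -0.12 in repeat 1 to 0.81 in repeat 2, whereas the 5 of T12 lie between -0.21 and -0.14.

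Correlations between arrays gave the same order. Over the 9564 genes whose mean level over the 9 arrays was at least 6, repeat 1 correlated with the T12 arrays at 0.955 to 0.973 and with the T20 array at 0.907. Repeat 2 correlated with the T12 arrays at 0.865 to 0.871 and with the T20 array at 0.966. Repeats 3 and 4 lay between them, at 0.917 to 0.924 and 0.934 to 0.940 with T12. These values are across genes of the same arrays and describe them only. Many of the results below are also given without repeat 1 or repeat 2.

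The spread between repeats was wider at T16. Among the 9584 genes whose T16 and T12 means averaged at least 6, the median SD was 0.224 over the 4 T16 arrays and 0.184 over the 5 T12 arrays. The SD passed 1 in 1.44% of them at T16 and in 0.0939% at T12. Among the genes with such an SD at T16, 108 had their highest level in repeat 2, 22 in repeat 1, 5 in repeat 3 and 3 in repeat 4, and 77 had their lowest level in repeat 1. The levels ran upward in the order of the stage score, repeat 1, 4, 3 and then 2, in 59 of them, downward in 5 and in another order in 74.

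Of 17118 genes tested with limma, 1330 passed an adjusted p of 0.05 (7.77%), 512 higher at T16 (2.99%) and 818 lower (4.78%), and the median difference of all genes was 0.05. The unadjusted p was under 0.05 in 4953 genes (28.9%). At T16 1090 genes lay above every T12 array in all 4 repeats (6.37%) and 1303 lay below (7.61%). The count depended on which repeats entered. Without repeat 1 it was 3096 (18.1%, with 7.47% higher, 10.6% lower and 34.8% at an unadjusted p under 0.05), 1298 of them among the 1330. Without repeat 2 it was 455 (2.66%, with 1.22% higher, 1.44% lower and 24.5% at an unadjusted p under 0.05), 423 of them among the 1330. It was 62 without repeat 3 and 177 without repeat 4, all of them among the 1330. Fewer genes thus passed without repeat 3 or repeat 4 than without repeat 2. A call lost without repeat 2 therefore need not rest on that repeat, here and in the lists below. Leaving out repeats 1 and 2 together, chosen after the scores were seen, gave 2053 (12.0%, with 5.42% higher, 6.58% lower and 31.7% at an unadjusted p under 0.05), of which 1013 were among the 1330. With the stage score added to the fit, 2 genes passed, gipc-1 and ZK1248.5.

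Furrow collagens of the cuticle fell in all 5 measured members, dpy-2, dpy-3, dpy-7, dpy-8 and dpy-9, with a median difference of -1.60 and a range of -1.75 to -1.48. These collagens form the furrows between the rings of the cuticle, and loss of any of them gives short, fat worms. The level of dpy-7 was 9.86, 8.81, 9.35 and 9.44 in T16 repeats 1 to 4, against 10.78, 11.15, 10.83, 10.85 and 10.60 in T12 repeats 1 to 5. No T16 array reached a T12 array, and repeat 2 was the lowest. The difference was -1.48 ± 0.208 (SE, adjusted p = 0.0131). The other members behaved alike, at -1.75 ± 0.258 for dpy-8, -1.70 ± 0.222 for dpy-9, -1.60 ± 0.215 for dpy-3 and -1.57 ± 0.234 for dpy-2. All 5 also passed without repeat 1, without repeat 2, without repeat 4 and without both repeats 1 and 2. Without repeat 3 dpy-9 passed (adjusted p = 0.0494), and dpy-2, dpy-3, dpy-7 and dpy-8 did not (adjusted p between 0.0502 and 0.0555). None passed with the stage score in the fit (adjusted p between 0.103 and 0.125). The mean of the list differed from its T12 mean by -1.11, -2.16, -1.85 and -1.36 log2 units in T16 repeats 1 to 4, whereas the T12 arrays ranged from -0.28 to 0.28. The array that scored nearest to T12 thus also had lower furrow collagens. Fewer cells of a type and less RNA per cell cannot be told apart in these whole-worm samples.

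The genes that fell with the smallest p had varied roles, and such a choice favours genes with little spread. For let-653, which encodes a zona pellucida domain protein of the matrix that lines developing tubes, the level was 7.68, 7.41, 7.91 and 7.75 at T16, against 9.13, 9.31, 9.08, 9.21 and 8.99 at T12. The T16 levels lay more than 1 log2 unit under the lowest T12 level. The difference was -1.46 ± 0.13 (adjusted p = 0.00499). The hedgehog-related gene wrt-10 had levels of 10.09, 9.86, 10.07 and 10.30 at T16 and of 11.49, 11.88, 11.53, 11.63 and 11.36 at T12. Its difference of -1.50 ± 0.141 (adjusted p = 0.00499) was again shared by every repeat. The glucuronosyltransferase gene ugt-57 fell by 1.79 ± 0.166, the bZIP transcription factor gene atf-8 by 1.97 ± 0.186 and the uncharacterised gene C09F12.2 by 1.74 ± 0.14, each at an adjusted p of 0.00499. The patched-related gene ptr-10 fell by 1.44 ± 0.141 (adjusted p = 0.00544). Across all genes with a T12 mean of at least 6, 9 lay more than 1 log2 unit below the T12 range in all 4 T16 repeats, namely wrt-10, sym-1, ugt-57, let-653, atf-8, strm-1, ztf-2, epic-2 and C09F12.2.

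**Figure D2:**
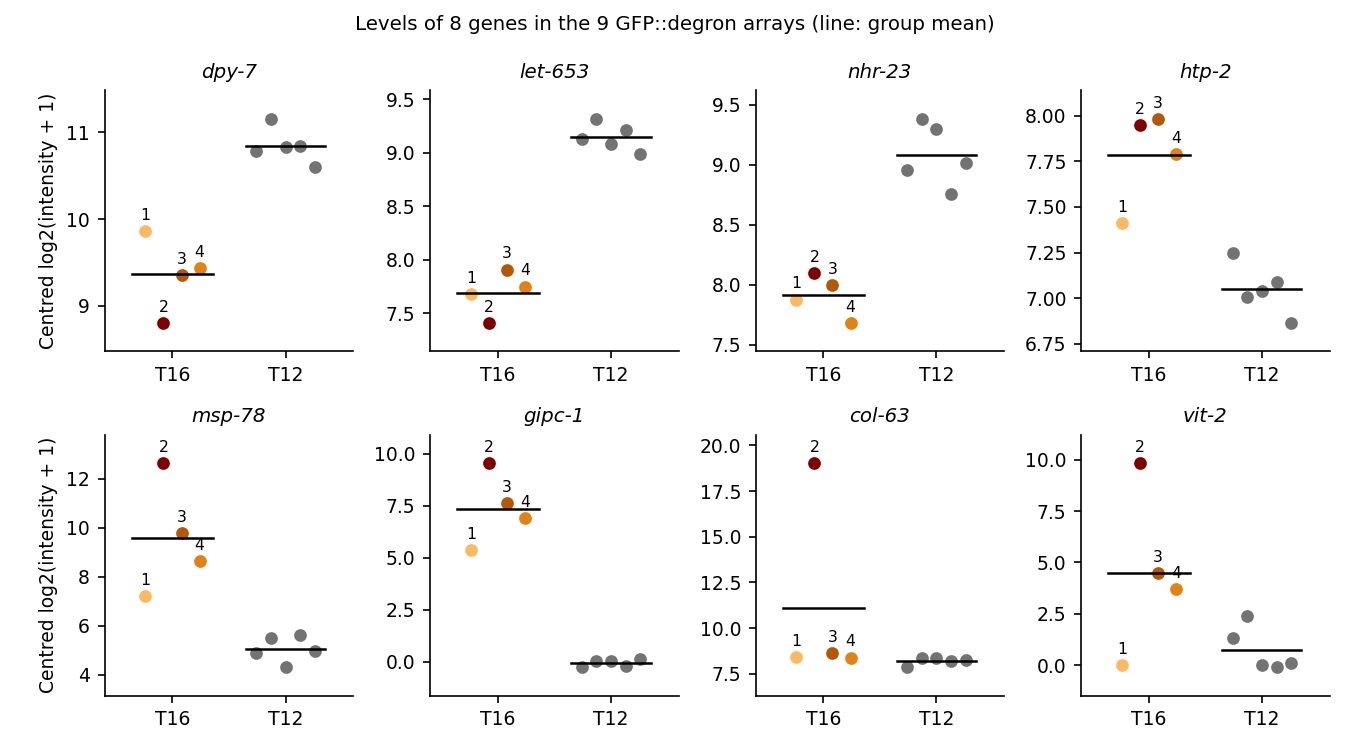
Centred log2(intensity + 1) (vertical axes, own range per panel) of 8 genes in the T16 repeats, numbered 1 to 4 and coloured by stage score, and in the 5 T12 repeats in grey, with lines at group means. T16 levels of dpy-7, let-653 and nhr-23 lie below all T12 levels, with little spread in let-653 and nhr-23. Those of msp-78 and gipc-1 lie above all T12 levels in every repeat, and col-63 is high in repeat 2 only.

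Of 23 genes of the molting list, 6 fell, 1 rose and 16 did not pass, with a list median of -0.45. The nuclear receptor gene nhr-23, which drives each molt, had levels of 7.88, 8.10, 7.99 and 7.68 at T16, against 8.96, 9.38, 9.29, 8.75 and 9.01 at T12. All 4 T16 repeats lay below all 5 T12 repeats, and repeat 2 did not stand apart. The difference was -1.17 ± 0.158 (adjusted p = 0.0119). Other members that fell were dre-1, an F-box gene of larval timing (-1.35 ± 0.2), the transcription factor genes peb-1 (-1.33 ± 0.14) and myrf-1 (-1.30 ± 0.211), the leucine-rich repeat gene pan-1 (-1.15) and the protease inhibitor gene mlt-11 (-0.93). The protease inhibitor gene bli-5 rose by 0.78. Without repeat 1, 12 members were lower, and without repeat 2, 5 were. The molting marker mlt-10 had levels of 8.88, 7.45, 7.12 and 7.77 at T16 and of 8.71, 8.96, 8.94, 8.16 and 8.44 at T12 and did not pass (-0.84 ± 0.343, adjusted p = 0.147), since repeat 1 lay within the T12 range.

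Among 80 hedgehog-related and patched-related genes, 9 fell and 2 rose, with a list median of 0.00. The secreted wrt-2 fell by 1.41 ± 0.298 (adjusted p = 0.0307) and lost its call without repeat 2 (adjusted p = 0.058). The higher members were grl-27 (1.34 ± 0.261) and wrt-8 (1.33). Without repeat 2, 6 members of these families were lower and 2 higher. Of 36 astacin metalloproteases, 3 fell and 3 rose, with a median of 0.27. Those that fell were nas-4 (-1.49 ± 0.263), nas-37 (-1.32 ± 0.327), a protease of molting, and dpy-31 (-0.90), which processes collagens, and those that rose were nas-18 (0.92), nas-13 (0.81 ± 0.155) and nas-36 (0.67). Without repeat 2, 2 astacins were lower and 3 higher, nas-37 having lost its call (adjusted p = 0.0948). Of 39 cuticlin and zona pellucida domain genes, 4 fell, namely noah-2 (-1.52 ± 0.242), let-653, fbn-1 (-0.85 ± 0.188) and cutl-6 (-0.85), and none rose, against 7 lower and 7 higher at an unadjusted p under 0.05. The list median was 0.14, and 2 were called lower without repeat 2. In each of these 3 families single members moved apart rather than the family as a whole.

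Among the numbered collagens other than the adult and body-shape ones, more members were higher than lower. Of 123, 8 rose and 3 fell, with a list median of 0.39. The shares over all genes were 2.99% called higher and 4.78% called lower. At an unadjusted p under 0.05, 41 of the 123 were higher and 5 lower, against 2471 higher and 2482 lower of all 17118 genes. The level of col-113 was 9.97, 10.05, 10.43 and 9.99 at T16, against 8.65, 8.81, 8.74, 8.16 and 8.96 at T12. Each T16 repeat lay more than 1 log2 unit above each T12 repeat (1.45, adjusted p = 0.0102). A member with little spread was col-51, at 8.78, 8.77, 8.82 and 8.74 at T16 against 8.08, 8.07, 7.95, 7.91 and 7.87 at T12 (0.80 ± 0.0969, adjusted p = 0.00965). Further members that rose were col-130 (1.34), col-77 (1.09), col-58 (0.92), col-158 (0.91), col-97 (0.84) and col-174 (0.66), and without repeat 2, 4 collagens of the list were higher and 2 lower. Those that fell were col-128 (-1.53), col-149 (-1.21 ± 0.14) and col-153 (-0.85), although a second, dimmer probe set of col-149 differed by -0.21 only. Among 13 body-shape collagens 1 rose, bli-1, a collagen of the struts of the adult cuticle. Its level was 5.54, 10.33, 8.93 and 7.52 at T16 and 4.96, 4.63, 4.42, 5.15 and 4.58 at T12 (3.33 ± 0.803, adjusted p = 0.0413). Repeat 1 lay a little above the highest T12 array and repeat 2 far above, and without repeat 2 the gene did not pass (adjusted p = 0.0708). The body-shape collagen gene rol-6 did not pass, at 13.32, 12.43, 13.01 and 13.02 at T16 and 12.88, 13.28, 13.08, 12.92 and 13.14 at T12.

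Several of these genes had mean levels at T8 on the T16 side of their T12 level. For the furrow collagen dpy-7 the mean level was 9.40 at T8, 10.84 at T12 and 9.36 at T16, and the single T20 array stood at 9.83. For wrt-10 the values were 10.25 at T8, 11.58 at T12, 10.08 at T16 and 10.79 at T20. The mirror image was seen in col-113, ZK1307.2 and F23F1.2. Mean levels of ZK1307.2 were 7.66 at T8, 6.48 at T12, 7.75 at T16 and 5.84 at T20, and those of F23F1.2 were 7.39, 6.47, 8.02 and 6.70 in the same order. Both comparisons share the T12 arrays, so these values are set side by side and no overlap was computed. The T8 arrays of the strain scored between -0.22 and -0.11 on the stage score.

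Sperm genes were higher at T16, and the major sperm protein list had the largest median difference of the 32 lists. Of 23 major sperm protein genes, which encode the cytoskeletal and signalling protein of the crawling sperm, 12 rose and none fell, and the list median was 3.88. The level of msp-78 was 7.19, 12.62, 9.78 and 8.64 in T16 repeats 1 to 4, against 4.88, 5.50, 4.30, 5.63 and 4.96 at T12. Each T16 array lay above each T12 array, and the 4 T16 levels spanned more than 5 log2 units. The difference was 4.50 ± 0.922 (adjusted p = 0.0282). The difference was largest in msp-76 (6.19 ± 1.31) and smallest among those called in msp-74 (3.45). Levels of msp-76 at T12 lay between 0.44 and 4.50, and its T16 mean of 8.66 lay under the 9.56 of msp-78. The rank of msp-76 thus rests on low T12 levels. Relative to the T12 mean, the list averaged 1.09, 7.26, 4.07 and 3.06 higher in T16 repeats 1 to 4, and 7.38 higher in the T20 array. More than 1 log2 unit above the T12 range and at a level of at least 6 in the same array lay 4 members in repeat 1 (0.251% of all genes), 23 in repeat 2 (4.56%), 23 in repeat 3 (1.17%) and 22 in repeat 4 (0.695%). Each bracket gives the share of all genes that met the same rule. Without the minimum level, chosen after the data were seen, the members were 7, 23, 23 and 22. Without repeat 2, 7 of 23 were called, without repeat 1, 22, and without both, 22. Major sperm protein genes are near-identical copies that share probe sequences, so single members cannot be told apart with confidence, and a second probe set of msp-32 differed by 0.56 and was not called.

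Other sperm genes followed the same order of repeats at a smaller scale. The list of 53 averaged 0.26, 3.48, 1.65 and 1.31 above its T12 mean in T16 repeats 1 to 4. Of the 53, 5 rose (nspd-2, ssp-16, spe-10, spe-44 and ssq-4) and none fell, with a median of 1.38, against 28 higher and 0 lower at an unadjusted p under 0.05. The level of spe-44, a transcription factor gene of the sperm programme, was 7.16, 8.36, 7.44 and 7.41 at T16, against 6.70, 6.23, 6.44, 6.57 and 6.58 at T12 (1.09, adjusted p = 0.0317). The groups did not overlap. Without repeat 1, 22 of the 53 were higher, and without repeat 2, 2 were. The phosphatase gene gsp-3, needed for sperm motility, had levels of 1.81, 9.59, 6.82 and 6.06 at T16 and of -0.25, 3.05, 0.13, 2.58 and 4.17 at T12 and did not pass (adjusted p = 0.114), as repeat 1 lay within the T12 range.

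The gene gipc-1, which encodes a PDZ domain protein, had the largest difference of all genes called. Its level was 5.36, 9.55, 7.62 and 6.92 at T16, against -0.25, 0.06, 0.02, -0.20 and 0.12 at T12. The T12 levels correspond to deposited intensities near 0, and the T20 array stood at 9.71. The difference was 7.41 ± 0.678 (adjusted p = 0.00499), and it was 3.62 with a pseudocount of 16 in place of 1, so its size rests on the pseudocount. It also passed with the stage score in the fit (5.68, adjusted p = 0.000444). Similar rises from low T12 levels were measured in msd-4 (6.28 ± 1.18), nsph-3.1 (6.22 ± 1.04), T23G11.1 (5.10 ± 1.11), nspd-2 (5.05 ± 0.988), F46A9.1 (4.95 ± 0.893) and msd-2 (4.71 ± 1.19). Each of these 6 was highest in repeat 2 and lowest in repeat 1. These 6 genes were picked from called genes whose T16 and T12 arrays did not overlap, so their lack of overlap is no result. Without repeat 2, msd-2 did not pass (adjusted p = 0.0858). Above the T12 range by over 1 log2 unit, and at a level of at least 6, in all 4 repeats lay 11 genes. Without the minimum level there were 35, gipc-1 among them. The 11 were msp-36, msp-38, msp-77, msp-78, col-113, fbxc-58, F37A4.5, icmt-1, F23F1.2, btbz-2 and C06A1.6.

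**Figure D3:**
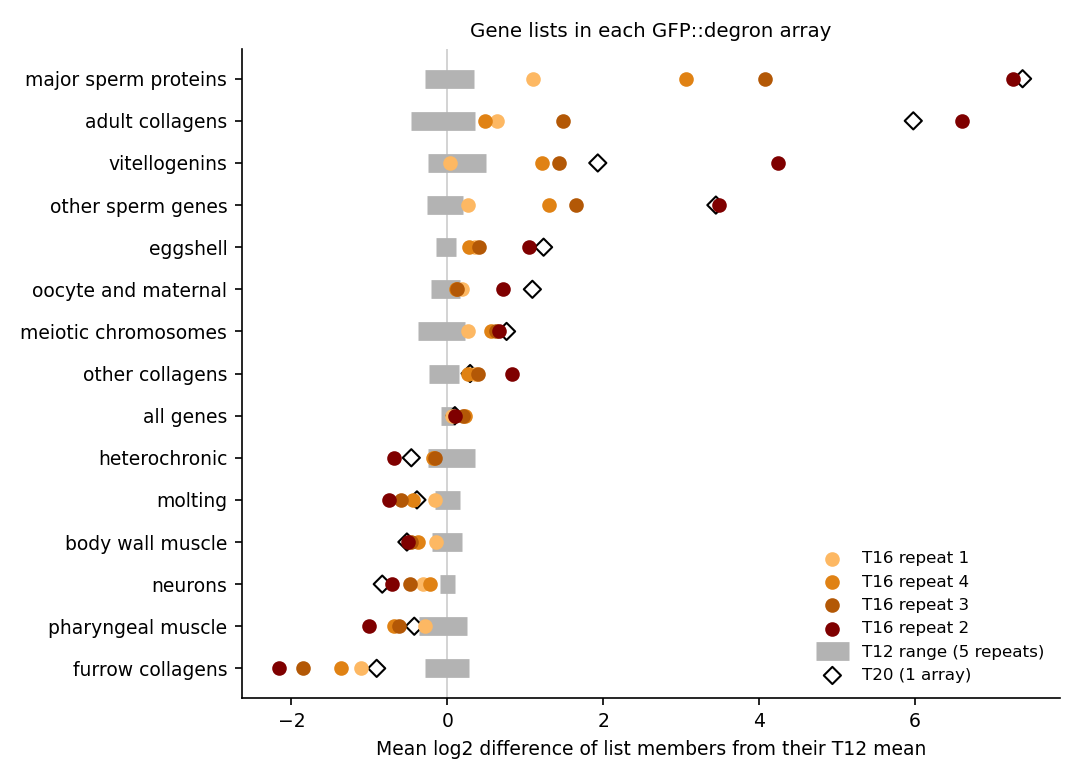
Mean log2 difference of the members of each list from their T12 mean (horizontal axis) in the 4 T16 repeats (circles, darker with a higher stage score) and the T20 array (open diamonds), with the range of the 5 T12 arrays as grey bars. Major sperm proteins lie at 1.09 in repeat 1 and 7.26 in repeat 2, furrow collagens lie below the T12 range in all 4 repeats, and adult collagens are at 6.60 in repeat 2.

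Part of the meiotic chromosome genes rose, by about 1 log2 unit or less. Of 20, 5 rose and none fell, with a median of 0.59. These were spo-11, the enzyme that cuts DNA to start recombination (1.04), cosa-1, a crossover factor (0.97), the axis genes htp-2 (0.73 ± 0.147) and htp-1 (0.68 ± 0.141), and syp-3, part of the synaptonemal complex (0.66 ± 0.149). Levels of spo-11 were 6.07, 6.73, 6.66 and 6.54 at T16, with a highest level of 5.70 and a median of 5.44 at T12. The groups did not overlap, and repeat 2 did not stand apart from repeats 3 and 4. The list averaged 0.27, 0.67, 0.62 and 0.56 above its T12 mean in repeats 1 to 4. At an unadjusted p under 0.05, 14 were higher. Without repeat 1, 11 members passed, and without repeat 2, 1 did, htp-1 and htp-2 losing their calls (adjusted p = 0.0674 and 0.0635). Neither htp-1 nor htp-2 passed without repeat 3 (adjusted p = 0.0966 and 0.0914) or without repeat 4 (adjusted p = 0.0821 and 0.0762). DNA replication genes went the other way, with 4 of 21 lower, rnr-2 (-0.61 ± 0.141), mcm-2 (-0.58 ± 0.136), mcm-4 and mcm-6, 17 not called and a median of -0.22. None of the 21 was called without repeat 2. Of 16 P granule and germline small RNA genes, 0 passed with limma, and 2 were higher at an unadjusted p under 0.05.

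Yolk, eggshell and maternal genes were higher mainly in repeat 2. Of 5 vitellogenin genes with an own probe set, 1 rose, vit-1, with levels of 5.32, 8.32, 6.28 and 5.77 at T16 against 3.99, 4.56, 3.23, 3.81 and 4.80 at T12 (2.34, adjusted p = 0.0456). For vit-2 the levels were 0.01, 9.82, 4.48 and 3.71 at T16 and 1.33, 2.40, 0.03, -0.08 and 0.12 at T12. Repeats 2, 3 and 4 lay above the T12 range and repeat 1 within it, and the gene did not pass (3.74 ± 1.63, adjusted p = 0.168). Levels of vit-5 were 5.93, 11.51, 6.47 and 6.71 at T16 and 5.39, 6.01, 6.31, 5.70 and 5.96 at T12 (adjusted p = 0.269). The probe sets of vit-4 disagreed, since the brightest differed by -0.01 and the others by 1.70 and 1.81, and the vitellogenin genes share much sequence. No vitellogenin passed without repeat 2, and 2 passed without repeat 1.

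Of 12 eggshell genes, 1 rose, perm-2, which encodes a protein of the permeability barrier, and none fell, with a median of 0.55. Its level was 5.76, 6.47, 6.39 and 6.01 at T16, against 5.44, 5.67, 5.43, 5.07 and 5.51 at T12 (0.73 ± 0.181, adjusted p = 0.0443). The groups did not overlap but lay close, and without repeat 2 the gene did not pass (adjusted p = 0.0996). Of 18 oocyte and maternal genes, the germ cell gene nos-2 (0.68 ± 0.153) and the Y-box gene cey-3 (0.46) rose, and lin-41, a timing gene that also acts in oocytes, fell (-1.19 ± 0.296), with a list median of 0.42. Without repeat 2, 1 member was higher and none lower, nos-2 (adjusted p = 0.0808) and lin-41 (adjusted p = 0.0846) having lost their calls. The yolk receptor gene rme-2 had levels of 7.34, 8.58, 7.60 and 7.48 at T16 and of 7.07, 7.37, 7.18, 6.81 and 6.94 at T12 and did not pass (adjusted p = 0.119). The eggshell list averaged 0.36, 1.04, 0.40 and 0.28 above its T12 mean in T16 repeats 1 to 4, and the oocyte list 0.19, 0.71, 0.13 and 0.11, so repeat 2 stood above the others in both. Of 12 genes switched on in the early embryo, 0 passed with limma, 2 being higher at an unadjusted p under 0.05.

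Adult collagens differed more between the T16 repeats than between the times. Of 5 measured, col-19, col-38, col-49, col-63 and col-138, 0 passed with limma, and 2 were higher at an unadjusted p under 0.05. The list averaged 0.64, 6.60, 1.48 and 0.48 above its T12 mean in T16 repeats 1 to 4, and 5.98 in the T20 array. The level of col-63 was 8.39, 19.02, 8.63 and 8.37 at T16, against 7.86, 8.35, 8.38, 8.22 and 8.24 at T12. Repeat 2 alone was high, the value is one of those above the scanner limit, and the T20 array stood at 18.97. The difference of 2.89 ± 2.04 was not called (adjusted p = 0.365). The level of col-38 was 9.33, 15.36, 11.85 and 8.89 at T16, against 8.09, 8.16, 8.69, 7.80 and 8.75 at T12, so that all 4 T16 repeats lay above T12, repeats 1 and 4 only just (adjusted p = 0.125). Other genes with the widest spread at T16 had the same form. Levels of ZK1248.17 were 4.05, 14.76, 4.28 and 3.95, of Y51H7C.1 6.29, 15.32, 5.94 and 5.95, and of rol-1, a body-shape gene, 6.78, 13.34, 6.81 and 6.65, in T16 repeats 1 to 4. T12 levels of these 3 genes lay between 3.27 and 7.07. In sams-5, a gene for S-adenosylmethionine synthetase, 3 repeats were high, at 15.15, 14.39 and 13.24 in repeats 2, 3 and 4, and repeat 1, at 6.19, lay within the T12 range (adjusted p = 0.0644, and 0.00143 without repeat 1).

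Repeat 2 held most of the genes that left the T12 range upward. For these counts a gene had to reach a level of 6 in the repeat that lay above the range, or a T12 mean of 6 where a repeat lay below it. Above the range by more than 1 log2 unit lay 781 genes in repeat 2 (4.56%), with 43 in repeat 1 (0.251%), 200 in repeat 3 (1.17%) and 0.695% of all genes in repeat 4. Below it lay 336 genes in repeat 2 (1.96%), 34 in repeat 1 (0.199%), 255 in repeat 3 (1.49%) and 175 in repeat 4 (1.02%). Without the minimum level, 83, 1006, 483 and 334 genes lay above the range in repeats 1 to 4, and 144, 395, 301 and 215 lay below it. Of the 781 genes above the range in repeat 2, 88.2% were also above it in the T20 array, as were 5.67% of all genes, the T20 level having no minimum. Of the 336 below it, 64 were also below it at T20, as were 1.74% of all genes. Repeat 2 thus shared more of its higher genes than of its lower genes with the T20 array.

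Some genes were high in repeat 2 and had a much lower level at T20. In 31 genes repeat 2 lay at least 2 log2 units above every T12 array, the other T16 repeats and the T20 array. The level of C40C9.3 was 5.32, 13.50, 5.75 and 5.83 at T16, 5.23 at T20 and 5.30 on average at T12, and in GFP worms at T16 it averaged 14.08. For F55B11.2 repeat 2 stood at 11.62 and T20 at 3.43, and for vit-5 repeat 2 stood at 11.51 and T20 at 5.97. The collagens col-139 (15.37 against 13.17), col-81 (12.93 against 7.48), col-137 (11.53 against 6.73) and col-19 (9.29 against 6.82) gave the same picture, the value in repeat 2 before that at T20. These genes were picked after their values were seen, and the T20 group holds 1 array only.

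**Figure D4:**
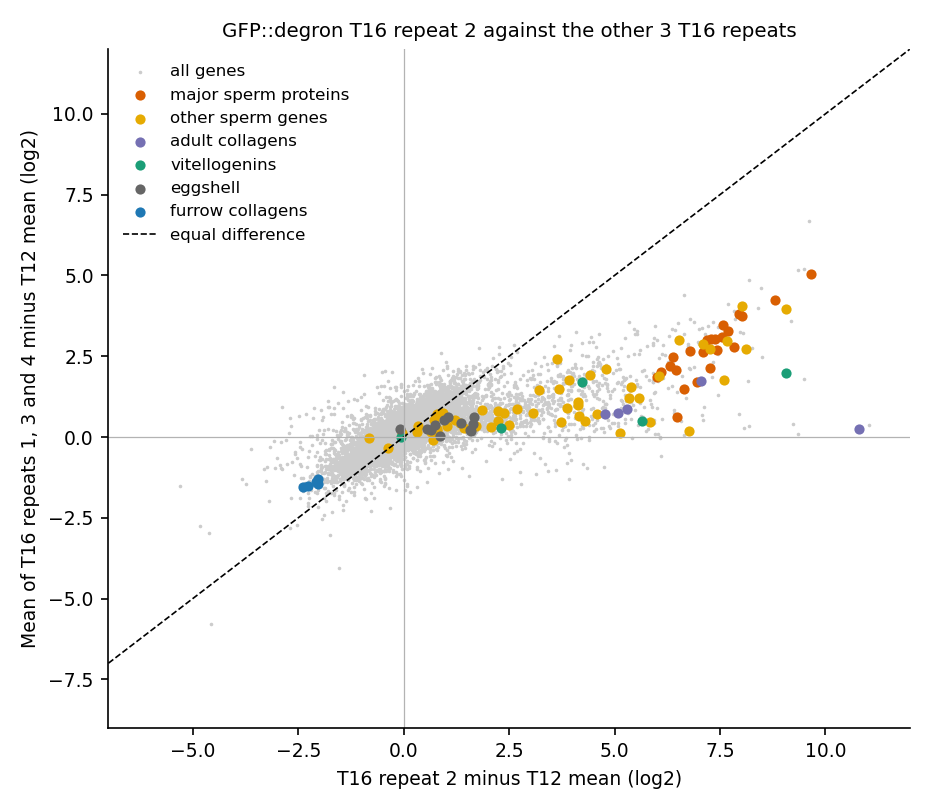
Difference of T16 repeat 2 from the T12 mean (horizontal axis, log2) against that of the mean of T16 repeats 1, 3 and 4 (vertical axis, log2) for all genes, with 6 lists coloured and a dashed line at equal differences. Furrow collagens lie below 0 on both axes, whereas the major sperm proteins, the adult collagens and most other sperm genes lie right of the line, being higher in repeat 2.

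The remaining repeats had few genes of their own. Under the same rule, above the T12 range in repeat 1 only lay 27 genes, among them idpp-7, trx-3, pqn-54, lin-11 and nas-8. The level of trx-3, a thioredoxin gene of the intestine, was 10.31, 9.78, 9.52 and 9.51 at T16. No T12 array reached the lowest of these, and the T12 mean was 8.72, so all 4 repeats were higher and repeat 1 most (1.06, adjusted p = 0.0313). In repeats 3 and 4 together lay 27 genes, among them pud-3, irg-1, an infection response gene, and the transporter gene pgp-5. Levels of irg-1 were 7.35, 7.58, 8.91 and 9.17 at T16 and 7.06, 7.31, 7.05, 5.42 and 6.65 at T12, and it did not pass (adjusted p = 0.0822). In repeat 3 only lay 31 genes, among them the metallothionein gene mtl-1, the lectin gene clec-60 and the lysozyme gene ilys-3. The level of mtl-1 was 7.15, 7.37, 9.23 and 7.95 at T16, and the T12 arrays reached 7.78 at most. Below the T12 range in repeats 2, 3 and 4 but not in repeat 1 lay 83 genes, among them dpy-2, noah-2 and mdl-1, and mdl-1, a transcription factor gene, stood at 10.05, 9.25, 8.50 and 8.26 at T16 and at 10.43, 10.75, 10.75, 10.39 and 10.50 at T12 (-1.55, adjusted p = 0.0314). The genes in this paragraph were chosen after their values were seen.

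The named genes with the largest decreases had varied roles. The fatty acid elongase gene elo-3 had levels of 7.41, 3.63, -0.12 and -0.08 at T16, against 8.34, 8.31, 8.77, 7.46 and 8.12 at T12. Repeats 3 and 4 lay near an intensity of 0, and repeat 1 lay just under the lowest T12 array. The difference was -5.49 ± 1.4 (adjusted p = 0.0478, and 0.0858 without repeat 2). The alcohol dehydrogenase gene adh-1 stood at 6.62, 7.91, 7.12 and 6.12 at T16 and at 9.64, 9.89, 9.94, 10.59 and 8.27 at T12 (-2.72 ± 0.488, adjusted p = 0.0212). Further decreases were measured in Y54E10A.6 (-2.68 ± 0.639), srlf-3 (-2.07 ± 0.316), epic-2 (-2.04 ± 0.379), tba-8, an alpha tubulin gene (-2.02 ± 0.488), idpp-1 (-2.02 ± 0.387), the kinase gene hpk-1 (-1.89 ± 0.387), the zinc finger gene ztf-2 (-1.88 ± 0.205) and grsp-3 (-1.82 ± 0.308). Without repeat 2, adh-1, srlf-3, epic-2, tba-8, ztf-2 and grsp-3 still passed, and elo-3, Y54E10A.6, idpp-1 and hpk-1 did not. Without repeat 3, adh-1, epic-2 and grsp-3 did not pass either (adjusted p between 0.0686 and 0.0722). Without repeat 4, epic-2 passed, and adh-1 (adjusted p = 0.0633) and grsp-3 (adjusted p = 0.0579) did not.

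Among the timing genes of larval development, 1 of 11 fell, the nuclear receptor gene daf-12, with levels of 8.64, 7.79, 8.28 and 8.40 at T16 against 9.27, 9.69, 9.76, 9.05 and 9.36 at T12 (-1.15 ± 0.21, adjusted p = 0.0222). Of its 2 dimmer probe sets, 1 differed by -3.42 and the other by 0.52. The other timing genes did not pass, for example lin-42 (-0.82 ± 0.32, adjusted p = 0.131), hbl-1 (-1.11 ± 0.295, adjusted p = 0.0528) and lin-29 (-0.88 ± 0.245, adjusted p = 0.0585). In the fit over every probe set, both probe sets of hbl-1 passed (-1.11 and -1.91), as did a dimmer one of lin-42 (-0.60). Of 10 genes of the vulva and egg-laying muscles, lin-11, a homeobox gene of the vulva, rose by 0.99 ± 0.161, and the growth factor genes lin-3 (-0.73) and egl-17 (-0.68) fell. Neither lin-3 nor egl-17 passed without repeat 2. Dimmer probe sets of egl-18 (-0.99) and egl-19 (-1.16), also of this list, were called in the fit over every probe set. Their brightest probe sets were not. Levels of lin-11 were 7.24, 7.05, 7.03 and 6.71 at T16 and 5.96, 6.04, 5.64, 6.22 and 6.23 at T12, without overlap.

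Some muscle and neuron markers fell. Of 29 genes of body wall muscle sarcomeres, 7 fell and none rose, with a median of -0.36. The alpha actinin gene atn-1 had levels of 9.69, 9.20, 8.97 and 9.16 at T16, against 9.91, 10.30, 10.23, 9.79 and 9.90 at T12 (-0.77 ± 0.177, adjusted p = 0.0361). The troponin genes tnt-2 (-0.74 ± 0.18) and tni-1 (-0.61 ± 0.128) and pat-4, unc-27, unc-112 and dim-1 also fell. The myosin heavy chain genes did not pass, unc-54 at -0.64 ± 0.192 (adjusted p = 0.0724) and myo-3 at -0.45 ± 0.148 (adjusted p = 0.0887). No gene of this list passed without repeat 2, and 11 did without repeat 1. Of 7 pharyngeal muscle genes, tni-4 fell (-0.87 ± 0.163), and of 19 neuronal genes 3 fell, unc-13, which primes synaptic vesicles (-0.90 ± 0.214), ric-4 and tph-1. The list medians were -0.64 and -0.41. Without repeat 2 tni-4 passed and 0 neuronal genes did. A dimmer probe set of egl-3, of the neuronal list, was called in the fit over every probe set (-1.20), and its brightest was not (-0.63). The body wall muscle list averaged -0.15, -0.50, -0.46 and -0.37 against its T12 mean in T16 repeats 1 to 4, the order of repeats seen in the sperm lists with the sign turned. The part of the germline lists in these values was not tested. Of 14 intestinal genes, 0 passed with limma and 1 was lower at an unadjusted p under 0.05.

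Protein quality control genes handle misfolded and degron-tagged proteins. Most members of these lists did not pass, and most of those that did were lower. Among all genes, 2.99% were called higher and 4.78% lower. Of 17 cytosolic chaperone genes, sip-1 rose and hsp-17, hsp-110 and hsp-43 fell, with a median of -0.20. Without repeat 2, 1 was lower and none higher. In the fit over every probe set, a second probe set of hsp-110 at nearly the same level differed by -0.30 and was not called. A second probe set of sip-1 was called (0.67). The small heat shock gene sip-1, expressed in oocytes and embryos, had a mean level of 12.37 at T16 and of 11.76 at T12, without overlap (0.61 ± 0.121, adjusted p = 0.0271). The heat-inducible genes hsp-16.2 (-0.23 ± 0.355, adjusted p = 0.685) and hsp-70 (-0.20 ± 0.345, adjusted p = 0.726) did not pass. Of 33 proteasome genes, pas-7 (-0.91 ± 0.21) and rpn-1 (-0.62 ± 0.158) fell, and without repeat 1, 9 were lower and 1 higher. Of 13 ubiquitin genes, 0 passed with limma, 4 being lower and 1 higher at an unadjusted p under 0.05, and ubq-2 differed by 0.01 ± 0.123. Of 27 autophagy genes, 0 passed with limma, 8 being lower and 1 higher at an unadjusted p under 0.05. Of 16 genes of endoplasmic reticulum stress, 4 fell, dnj-27 (-1.02 ± 0.197), the sensor kinase pek-1 (-0.77 ± 0.201), the chaperone hsp-3 (-0.77 ± 0.157) and pdi-2 (-0.54 ± 0.124). A dimmer probe set of pdi-2 differed by -0.13 and was not called, whereas a dimmer one of pek-1 was called (-0.47). Of 9 mitochondrial stress genes, the chaperone hsp-60 (-0.89 ± 0.212) and the regulator atfs-1 (-0.50 ± 0.122) fell. The fit over every probe set also called dimmer probe sets of hsp-6, of the mitochondrial list (-1.43), and of skn-1, of the ubiquitin list (-1.42). It called the brightest probe set of bec-1, of the autophagy list (-0.49), and no further probe set of hsp-6, skn-1 or bec-1. Without repeat 2, 0 genes of the proteasome, endoplasmic reticulum and mitochondrial lists were called.

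Of 33 antimicrobial peptide genes, abf-5 (-0.97 ± 0.166) and cnc-3 (-0.81 ± 0.194) fell, with a list median of -0.02. Without repeat 2, abf-5 passed and cnc-3 did not (adjusted p = 0.0783). Of 24 insulin-like genes, ins-39 rose (0.72) and none fell, with a median of -0.17, and none passed without repeat 2. At an unadjusted p under 0.05, 8 were lower and 3 higher. Among members with a mean level of at least 6, the largest differences were those of ins-24 (-0.90), ins-35 (-0.87), ins-5 (-0.82) and daf-28 (-0.81). These were not called. Of 75 ribosomal protein genes, 0 passed with limma, 1 was lower at an unadjusted p under 0.05, and the median was -0.09.

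Whether the change between T12 and T16 differed from that in the other strains was tested as an interaction on 26 arrays of T12 and T16. Against GFP worms, 172 of 17118 genes passed (1.0%), 66 with a higher change in GFP::degron worms (0.386%) and 106 with a lower one (0.619%), and 2360 had an unadjusted p under 0.05 (13.8%). The stage scores of the 2 strains differed at both times. GFP arrays scored between 0.94 and 1.06 at T16, and GFP T12 repeats 1 to 5 scored 0.45, -0.24, -0.21, 0.36 and 0.06. Strain and stage cannot be told apart in this comparison. Against Abeta worms, 0 genes passed with limma (0.0%), and 1191 had an unadjusted p under 0.05 (6.96%). Without GFP::degron T16 repeat 2, 614 genes passed against GFP and 65 against Abeta.

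Eggshell and maternal genes changed less in GFP::degron than in GFP worms. Of 12 eggshell genes, 9 had a lower change in GFP::degron worms, and of 18 oocyte and maternal genes, 13 did. None had a higher one. The median of the difference was -1.89 for the eggshell list and -1.49 for the oocyte list, against 0.04 for all genes. For the eggshell list the median change was 0.551 in GFP::degron, 1.099 in Abeta and 2.474 in GFP worms. For the oocyte list it was 0.423, 0.996 and 1.727 in the same order. The Abeta medians thus also lay below the GFP ones, so the smaller change was not particular to GFP::degron worms. The difference between Abeta and GFP worms was not tested. In GFP::degron worms the level of perm-2 was 5.76, 6.47, 6.39 and 6.01 at T16 and 5.44, 5.67, 5.43, 5.07 and 5.51 at T12. In GFP worms it was 8.68, 10.57, 9.87 and 9.53 at T16 and 5.83, 5.78, 5.18, 5.43 and 5.48 at T12. Levels at T12 were thus alike, and the GFP T16 arrays alone stood high. The difference of the changes was -3.39 ± 0.397 (adjusted p = 0.000308).

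In Abeta worms perm-2 stood at 5.25, 6.44, 6.39 and 5.90 at T16 and at 5.04, 5.23, 4.87 and 5.28 at T12. The RNA-binding protein gene puf-5, which acts in oocytes, gave -2.67, the egg membrane gene egg-1 -2.43, the eggshell chitin synthase gene chs-1 -2.07, the maternal zinc finger gene pos-1 -2.53 and the yolk receptor gene rme-2 -1.98 for GFP::degron minus GFP. Levels of puf-5 in GFP::degron worms were 6.71, 7.84, 6.63 and 6.35 at T16 and 6.32, 6.17, 6.37, 6.27 and 6.52 at T12, and in GFP worms 8.74, 9.94, 10.01 and 9.65 at T16 and 6.51, 6.17, 6.44, 6.27 and 6.40 at T12. In perm-2, puf-5, egg-1, chs-1, pos-1 and rme-2, which were picked for this difference, GFP::degron T16 repeat 2 lay under the lowest GFP T16 array, and its stage score of 0.81 also lay under all GFP T16 scores. Leaving out 1 array at a time left 5 to 11 of the 12 eggshell genes and 6 to 16 of the 18 oocyte genes called. The smallest count of eggshell genes came without GFP::degron T16 repeat 3 or 4, and the smallest count of oocyte genes came without either of these or GFP T16 repeat 3.

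**Figure D5:**
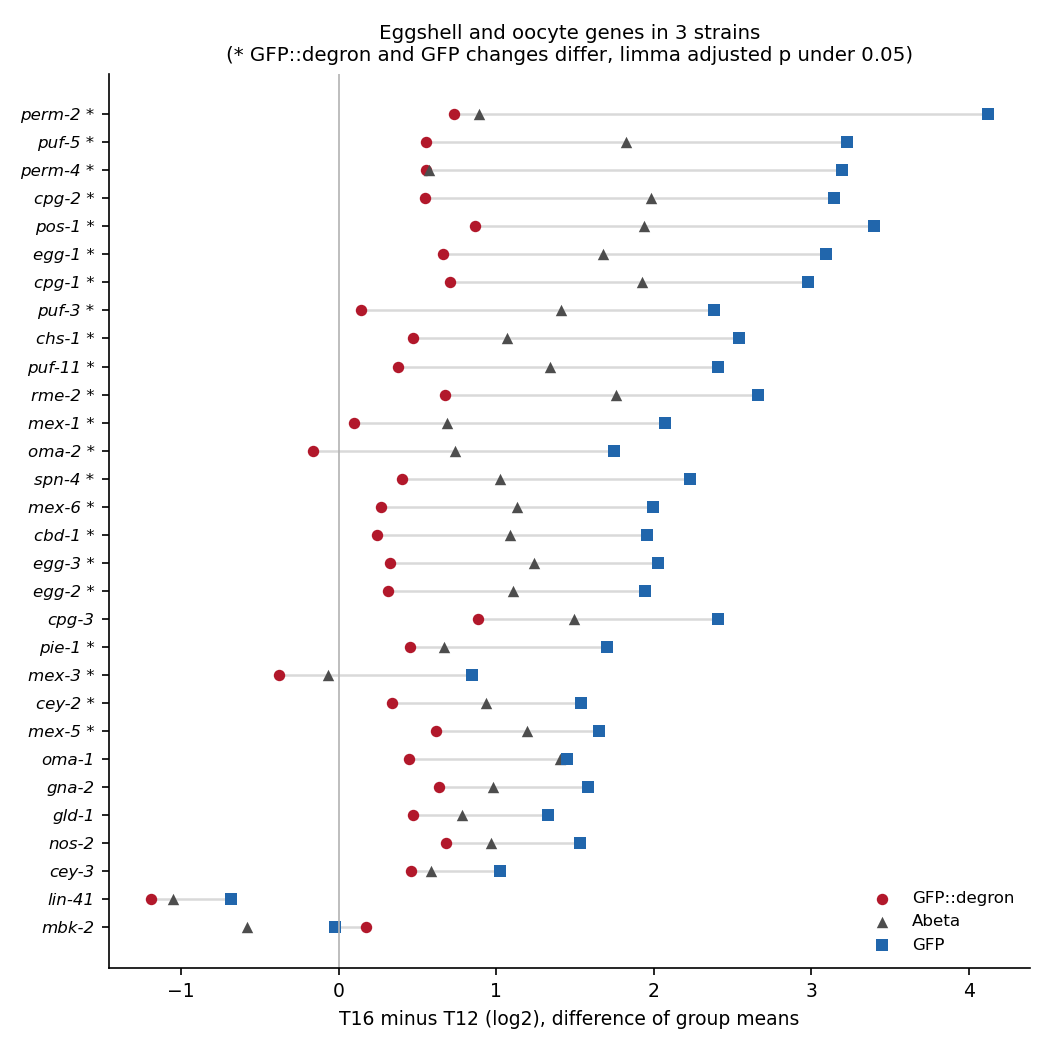
Difference of T16 and T12 group means (horizontal axis, log2) for 30 eggshell, oocyte and maternal genes in GFP::degron, Abeta and GFP worms, with stars where the GFP::degron and GFP changes differ at a limma adjusted p under 0.05. For perm-2 the change is 0.73 in GFP::degron worms and 4.12 in GFP worms, and the stars mark 22 of the 30 genes.

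Other genes with a lower change than in GFP worms were the lectin gene clec-87 (-2.93), F18A1.7 (-1.73), vit-5 (-6.33, adjusted p = 0.0454), col-122 (-5.29), col-181 (-5.07) and col-63 (-8.11, adjusted p = 0.0388, with values above the scanner limit). Genes with a higher change were F40A3.4 (1.69), T20D4.7 (1.51), F35F10.6 (1.40), F29G6.1 (1.28), F16B4.2, gldi-4 (1.04), the epidermal nuclear receptor gene nhr-25 (1.98), the cell cycle inhibitor gene cki-1 (1.08) and lin-11 (1.12). The level of F40A3.4 in GFP::degron worms was 7.21, 6.05, 6.98 and 7.11 at T16 and 6.58, 6.90, 6.46, 6.21 and 6.87 at T12, and in GFP worms 5.45, 5.00, 5.34 and 5.53 at T16 and 6.54, 7.02, 6.76, 6.74 and 6.88 at T12. The difference thus came with lower GFP levels at T16, and the repeat of GFP::degron worms with the highest stage score was the lowest of its group. For the furrow collagens the interaction passed in 0 of 5 with limma, with dpy-7 at -1.48 in GFP::degron and -2.11 in GFP worms, and for the major sperm proteins in 0 of 23, and no member of either list had an unadjusted p under 0.05. The list medians were a change of -1.60 in GFP::degron, -2.03 in GFP and -1.11 in Abeta worms for furrow collagens. For major sperm proteins they were 3.88 in GFP::degron, 5.06 in GFP and 6.71 in Abeta worms.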

How the data were processed

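The deposited values are single-colour Affymetrix signal intensities, 1 per probe set, with 47 arrays in the table. Per the submitters' processing notes, the authors used Affymetrix Expression Console 1.1 to obtain these intensities. How probes were summarised and arrays scaled is not given in the sources used here. Of 22625 probe sets, 77 controls were left out and 20766 name 1 gene in the platform annotation of 2016, 887 several and 895 none. Symbols were checked against the RefSeq gene table, where 20701 matched. The probe set with the highest mean stood for each of 17118 genes (2981 have several). Here values became log2(intensity + 1), centred on each array's median, with no filter on low values before the tests.

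T16 was tested against T12 with limma 3.58.1 (lmFit and eBayes, R 4.3.3, statmod 1.5.0) on the 9 arrays, with Benjamini-Hochberg adjustment over all genes and a threshold of 0.05. Differences between strains were interaction terms on the 26 arrays of T12 and T16. All adjusted p-values in the text come from limma. The fits were tested on simulated data, with independent noise and the same spread in every group for a given gene. That test does not cover the wider spread of the T16 repeats. Tables and plots used Python 3.11.15, pandas 2.3.3, numpy 2.4.6 and matplotlib 3.10.9.

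The members and the 32 gene lists were chosen with earlier results of these data known. Named genes are those called without overlap and with a higher group mean of at least 6 (up to 12 with the largest difference and 6 with the smallest p in each direction), the 12 with the largest SD at T16, 6 per direction from the GFP interaction and 4 from the Abeta one, the 4 members of each list with the largest difference, and 21 fixed genes. Other list members were named after their values were seen. Alternatives changed the normalization, pseudocount, filter, fit, probe sets and arrays. Leaving out T16 repeats 1 and 2 together, and the counts of each repeat against the T12 range (with and without a minimum level of 6), were added after the data were seen.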

Additional observations from a re-analysis of the deposited data

Results flagged for a closer look

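In groups of 4 or 5 arrays, 1 array can lie far from the rest, and chance does this in about 1 in 20 groups. It was found in 17 of 180 groups, 14 of T16 and 3 of T12. In 7 of them the gene had been chosen for its large SD at T16, so the count cannot be read against chance. In the T16 lists, repeat 2 stood alone 4 times. Its list means relative to T12 were 1.045 for eggshell genes (other repeats 0.2815 to 0.4031), 0.7121 for oocyte and maternal genes (0.1066 to 0.191), 6.603 for adult collagens (0.4776 to 1.481) and -0.6817 for timing genes (-0.181 to -0.1578).

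Among the 7 genes chosen for their SD, repeat 2 stood alone at 13.5 for C40C9.3 (other repeats 5.315 to 5.834), 12.28 for K03H1.12 (4.897 to 5.109), 15.32 for Y51H7C.1 (5.945 to 6.289), 14.76 for ZK1248.17 (3.953 to 4.277), 14.14 for col-60 (7.234 to 7.886), 19.02 for col-63 (8.369 to 8.635) and 13.34 for rol-1 (6.65 to 6.813). Repeat 1 stood alone in the cytosolic chaperone list at -0.2149 (-0.0986 to -0.09384), in the endoplasmic reticulum list at -0.005881 (-0.3801 to -0.3353) and in hsp-1, a constitutive chaperone, at 12.84 (12.44 to 12.46). At T12 grsp-3 stood at 7.177 in repeat 5 (8.198 to 8.607), msp-77 at 2.886 in repeat 3 (4.586 to 5.106) and nsph-3.1 at 2.344 in repeat 2 (-0.2242 to 0.1607).

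The change between T12 and T16 differed from that in GFP worms by the interaction term of limma in 21 named genes. In the 12 that were chosen by this term, GFP::degron minus GFP was -3.388 in perm-2, -2.931 in clec-87, -2.674 in puf-5, -2.43 in egg-1, -2.069 in chs-1 and -1.73 in F18A1.7. It was 1.693 in F40A3.4, 1.51 in T20D4.7, 1.404 in F35F10.6, 1.278 in F29G6.1, 1.096 in F16B4.2 and 1.043 in gldi-4.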

How the results depend on the processing

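Of 1330 genes called between T16 and T12 (38.5% higher), the count was 2102 with a pseudocount of 16, 2168 of 9564 genes with dim genes left out, 5040 with array weights (55.0% higher), 2337 with trend and robust settings in eBayes, 2112 with 37 arrays in the fit, 2361 of 20766 with every probe set, 2 with the stage score as a covariate and 2053 without T16 repeats 1 and 2. With dim genes left out, 30.4% of the genes called were higher, and the median difference of the genes tested was -0.09 in place of 0.05. Leaving out 1 array at a time gave 62 to 3096 genes called. There were 338, 241, 228, 764 and 778 without T12 repeats 1 to 5 and 3096, 455, 62 and 177 without T16 repeats 1 to 4. The titles number the repeats and do not say whether the numbers pair the samples. Same-numbered arrays correlated at -0.0599 to 0.0791 in their deviations from group means, and the others at -0.140 to 0.143. Deviations at T16 also hold the spread in stage score, so these values cannot decide whether samples were paired. With the repeat number as a replicate block, limma called 0 genes, with 4076 at an unadjusted p under 0.05. The block called 0 against GFP (2021 unadjusted) and 0 against Abeta (1023 unadjusted).

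Against GFP (172 called, 38.4% higher), the count was 398 after quantile normalization (56.0% higher), 418 with a pseudocount of 16, 352 with dim genes left out and 3267 with array weights (52.3% higher), and 141 without centring (63.1% higher). Leaving out 1 array gave 30 to 614, with 85, 614, 30 and 33 without GFP::degron T16 repeats 1 to 4, 80 to 113 without a GFP::degron T12 repeat, and 370, 62 and 45 without GFP T16 repeats 1 to 3. It was 90 and 87 without GFP T12 repeats 2 and 4. Without centring 7 of 12 eggshell and 8 of 18 oocyte genes were called. Against Abeta (0 called, 1191 unadjusted), the count was 5 with dim genes left out and 137 with array weights, and 0 to 65 leaving out 1 array. In the T16 minus T12 difference of 196 named genes, 0 of those called changed sign under these alternatives, the fit over every probe set not counted. With the stage score as a covariate 29 others did, 22 of them with a difference of at least 1, such as col-63 (-2.31), ZK1248.17 (-2.24), Y51H7C.1 (-2.14), rol-1 (-1.52) and vit-2 (-0.27), and under any other setting at most 5. Depth here is signal over background, and levels near 0 carry no reliable size. The cause of these shifts was not tested.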
